A study of Mus musculus with 14 samples.

Results

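The 10 genes described here encode enzymes and partners that write or erase repressive chromatin marks, namely the Polycomb repressive complex PRC2 (Ezh1, Ezh2, Eed, Suz12 and Jarid2), the histone demethylase LSD1 (Kdm1a), and the DNA methyltransferases with their cofactor (Dnmt1, Dnmt3a, Dnmt3b and Uhrf1). They were taken by symbol from the 46517 genes of an FPKM table of 14 mouse lung tumours, where each symbol matched 1 Ensembl identifier. RPM mice (11 tumours) carry floxed Rb1, floxed Trp53 and a Cre-activated Myc T58A allele, as LSL/LSL in 9 tumours and LSL/+ in 2 (replicates 2 and 4). RPR2 mice (3 tumours) carry floxed Rb1, floxed Trp53 and floxed Rbl2, the gene of the RB relative p130, so loss of Rb1 and Trp53 is shared by both models. An adenovirus delivered Cre under the neuroendocrine Cgrp promoter, and the untreated tumours were macro-dissected, so a sample can also hold host lung cells. Ages are not given in the labels.

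PRC2 places methyl groups on lysine residues of histone H3 at silenced developmental genes. EZH2 and EZH1 are its alternative catalytic subunits, EED and SUZ12 hold the complex together, and JARID2 helps bring it to its targets. EZH2 is a known target of E2F factors, is abundant in dividing cells and is high in human small cell lung cancer (SCLC), while EZH1 is the form of resting and differentiated cells. LSD1 removes methyl groups from histone H3 together with the CoREST proteins, and its inhibitors have been tried in SCLC. DNMT1 copies DNA methylation after replication, guided by UHRF1, and DNMT3A and DNMT3B set new methylation.

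The promoters of Ezh2 and Ezh1 are shown because these paralogs differed between the models in opposite directions, and those of Uhrf1 and Dnmt1 because they hold the same kind of motif as Ezh2. The windows run from 250 bases before to 50 bases after a RefSeq start site (GRCm38.p6, the assembly of mm10), read 5′ to 3′ on the strand of the gene. Capitals mark matches to an E2F-type motif, searched on both strands as TTTCCCGC, TTTCGCGC, TTTGCCGC or TTTGGCGC.
Ezh2, chr6:47594981-47595280, minus strand: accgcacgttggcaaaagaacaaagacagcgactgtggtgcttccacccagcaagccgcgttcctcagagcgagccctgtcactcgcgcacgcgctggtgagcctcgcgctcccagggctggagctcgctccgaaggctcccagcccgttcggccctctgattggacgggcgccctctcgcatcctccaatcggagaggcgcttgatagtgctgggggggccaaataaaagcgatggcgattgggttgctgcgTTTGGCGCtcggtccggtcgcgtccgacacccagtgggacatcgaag
Ezh1, chr11:101226414-101226713, minus strand: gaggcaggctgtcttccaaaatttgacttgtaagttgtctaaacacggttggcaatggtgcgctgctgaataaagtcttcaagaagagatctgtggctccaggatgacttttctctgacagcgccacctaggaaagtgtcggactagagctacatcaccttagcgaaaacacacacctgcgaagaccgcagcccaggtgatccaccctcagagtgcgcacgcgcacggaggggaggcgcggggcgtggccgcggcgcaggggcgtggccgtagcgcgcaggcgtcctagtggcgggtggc
Uhrf1, chr17:56304063-56304362, plus strand: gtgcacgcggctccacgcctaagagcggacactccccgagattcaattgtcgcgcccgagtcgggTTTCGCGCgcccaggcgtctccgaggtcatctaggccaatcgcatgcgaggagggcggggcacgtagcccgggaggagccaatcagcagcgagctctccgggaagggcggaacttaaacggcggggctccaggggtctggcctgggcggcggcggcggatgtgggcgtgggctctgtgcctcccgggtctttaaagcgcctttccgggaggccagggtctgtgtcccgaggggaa
Dnmt1, chr9:20952574-20952873, minus strand: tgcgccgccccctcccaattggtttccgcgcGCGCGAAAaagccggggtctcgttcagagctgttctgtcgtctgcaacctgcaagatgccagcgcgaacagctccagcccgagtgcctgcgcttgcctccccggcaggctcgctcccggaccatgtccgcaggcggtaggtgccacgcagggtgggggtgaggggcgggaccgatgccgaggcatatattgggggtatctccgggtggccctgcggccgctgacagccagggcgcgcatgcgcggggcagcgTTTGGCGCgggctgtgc

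The E2F-type match of Ezh2 lay at bases 254 to 261 of its window, just after the start site, and that of Uhrf1 at bases 66 to 73. Dnmt1 had matches at bases 32 to 39 and 284 to 291 of the window shown. Suz12, the scaffold subunit, held a further match (TTTCCCGC) at bases 32 to 39 of its window. The motif was found in 4 of the 16 windows of the 10 genes, each of another gene, and in 2.26% of 32851 windows of all genes. The E-box CACGTG, bound by MYC among other factors, was found in 1 Dnmt3a window, against 7.15% of all windows. CCAAT was found in 10 of the 16 windows, of 7 genes, against 37.4% of all windows. Dnmt1, Dnmt3a, Jarid2 and Uhrf1 have more than 1 window, and for Dnmt1 and Uhrf1 only the window with an E2F-type match is shown. A CpG observed-to-expected ratio of at least 0.6, a mark of CpG islands, was reached by 12 of these 16 windows and by 35.8% of all windows. Each E2F-type sequence searched holds a CG, so the share of all windows is not a like background for the E2F-type matches. These matches are a description of the sequence and were not linked to any binding data. In the GENCODE annotation of GRCm38, Ezh2 (ENSMUSG00000029687) spans chr6:47530139-47595341 and Ezh1 (ENSMUSG00000006920) chr11:101191115-101226463, both on the minus strand. Kdm1a (ENSMUSG00000036940) spans chr4:136550540-136602723 on the minus strand, and Uhrf1 (ENSMUSG00000001228) chr17:56303321-56323486 on the plus strand.

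RPR2 replicate 3 stood apart from the other libraries. The 9 neuroendocrine markers (such as Chga, Syp and Uchl1) summed to 219 to 1290 FPKM in RPM, to 2922 and 4047 FPKM in RPR2 replicates 1 and 2, and to 13.6 FPKM in RPR2 replicate 3. There, 7 of the 9 were under 1 FPKM and none was at 0. The 8 alveolar type 2 markers, led by the surfactant gene Sftpc, summed to 147 to 1454 FPKM in RPM, to 52824 FPKM in this tumour, and to 1923 and 2498 FPKM in the other RPR2 tumours. Mitosis genes were lowest there, with a list mean of log2(FPKM + 1) of 5.31 to 5.74 in RPM, 3.81 in this tumour, and 5.31 and 5.01 in the other RPR2 tumours. All 10 genes had their lowest RPR2 value in replicate 3, and 6 of them (Ezh2, Eed, Suz12, Kdm1a, Dnmt1 and Uhrf1) had their lowest value of all 14 tumours there. The values of the 10 genes are therefore given with and without this tumour. Of the other genes named as higher or lower, those with no value beside them for the fit without it were called in the same direction in that fit. Markers of other cells differed between the models too. Club and ciliated airway markers summed to 5.35 to 1534 FPKM in RPM and to 3472, 25538 and 840 FPKM in RPR2, highest in RPR2 replicate 2, which also had the most Ezh1. Of 7 fibroblast and pericyte markers 5 were called higher and 1 lower in RPM, with sums of 228 to 485 FPKM in RPM and 270, 182 and 116 FPKM in RPR2. The part of these cell markers in the results was not tested. In bulk tissue, fewer cells of a type and less RNA per cell cannot be told apart.

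**Figure D1:**
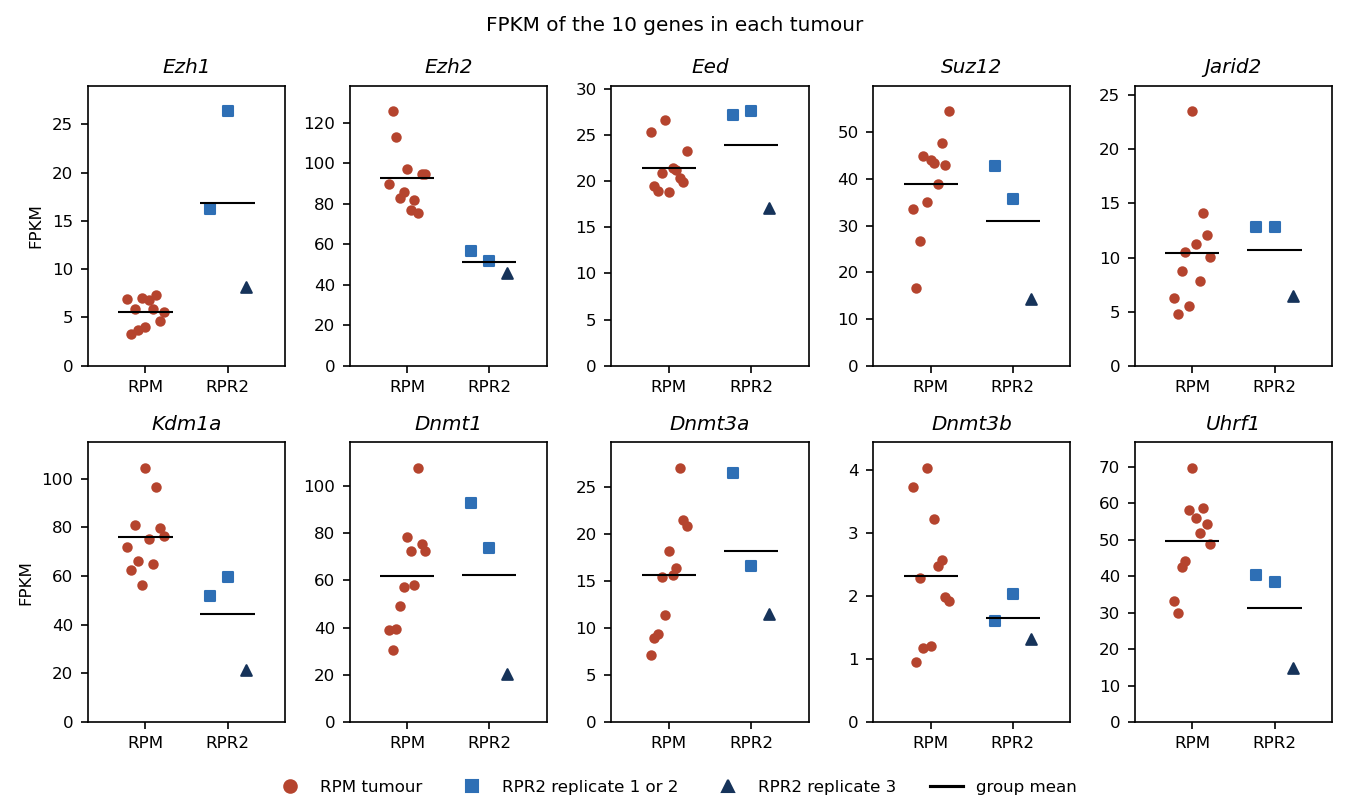
FPKM (y axis, linear, from 0) of each of the 10 genes in every tumour, with RPM left of RPR2 in each panel and a line at each group mean. All 11 RPM tumours lie above the RPR2 tumours for Ezh2 and below them for Ezh1, and the groups overlap for the other 8 genes.

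Ezh2 rose and its paralog Ezh1 fell in RPM relative to RPR2. Ezh2 ran from 75.5 to 126 FPKM (median 89.7) in RPM, and stood at 56.5, 51.9 and 46.0 FPKM in RPR2. Every RPM tumour lay above every RPR2 tumour. The means were 92.6 ± 15.3 FPKM in RPM (SD, n = 11) and 51.4 ± 5.27 FPKM in RPR2 (SD, n = 3), a log2 difference of 0.82 ± 0.153 (SE; 1.77-fold on the log2(FPKM + 1) scale; limma, Benjamini-Hochberg adjusted p = 0.000596). Ezh1 ran from 3.28 to 7.31 FPKM (median 5.84) in RPM, and stood at 16.2, 26.4 and 8.11 FPKM in RPR2. All 11 RPM tumours lay below all 3 RPR2 tumours, with RPR2 replicate 3 closest to them. The log2 difference of Ezh1 was -1.35 ± 0.288 (SE; limma, Benjamini-Hochberg adjusted p = 0.00180), and without RPR2 replicate 3 it was -1.77 (adjusted p = 0.000164 by the same test). Ezh2 kept its call without that tumour, at 0.75 (limma, Benjamini-Hochberg adjusted p = 0.00344). It lost the call when TPM scaling, which sets every library to the same sum, was added, at 0.35 (limma, Benjamini-Hochberg adjusted p = 0.0875). Ezh1 was called lower in that fit, at -2.21. That fit called 9.66% of all genes higher and 36.5% lower. With all libraries on the deposited scale, 18.4% of the 15719 genes tested were called higher and 22.8% lower in RPM. Groups that do not overlap were found for 11.1% of genes higher and 13.6% lower. Of the 10 genes, 3 were called higher (Ezh2, Kdm1a and Uhrf1) and 1 lower (Ezh1). Such counts among 10 genes lie near the shares of all genes and are not a result about the set. Without RPR2 replicate 3, 1 of the 10 was called higher and 1 lower, against 16.4% and 27.4% of all genes.

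The balance of the PRC2 catalytic subunits was compared within each tumour, where a scaling factor cancels. The ratio of Ezh2 to Ezh1 FPKM was 10.3 to 38.3 (median 17.1) in RPM and 3.48, 1.97 and 5.67 in RPR2. Every RPM tumour had a higher ratio than every RPR2 tumour, RPR2 replicate 3 included. This separation follows from the levels above, where neither gene overlapped between the models, and is not a further test. Ezh2 made up 91.2% to 97.5% of the summed FPKM of the pair in RPM and 77.7%, 66.3% and 85.0% in RPR2. The summed FPKM of the pair was 82.8 to 129 in RPM and 72.7, 78.2 and 54.1 in RPR2.

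**Figure D2:**
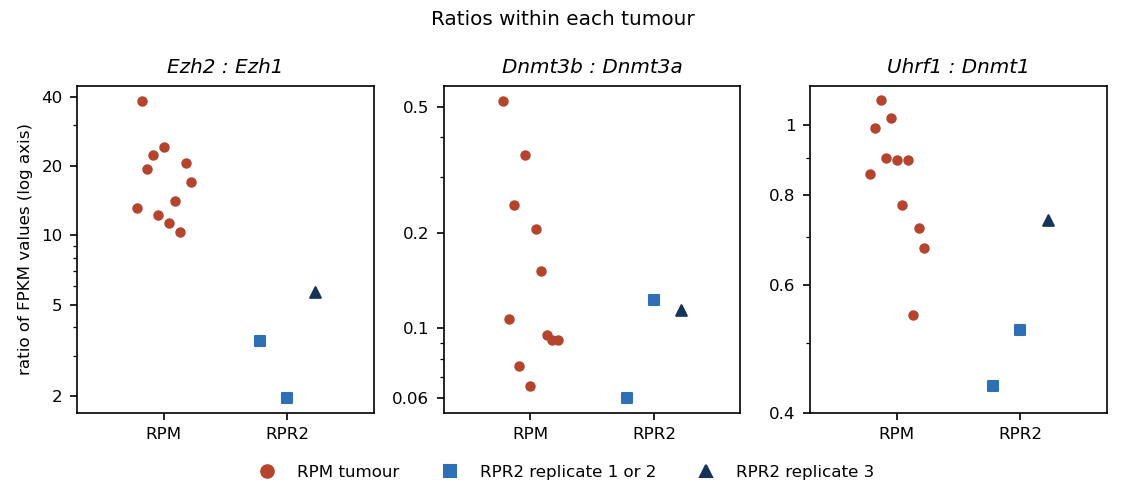
Ratio of 2 FPKM values within each tumour (y axis, log scale) for Ezh2 to Ezh1, Dnmt3b to Dnmt3a and Uhrf1 to Dnmt1, with RPM left of RPR2. The Ezh2 to Ezh1 ratio is at least 10.3 in RPM and at most 5.67 in RPR2, and the groups overlap for the other ratios.

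The remaining PRC2 subunits did not pass the test. Eed, which binds methylated histone H3, was at 18.8 to 26.6 FPKM (median 20.9) in RPM and 27.2, 27.6 and 17.1 FPKM in RPR2. RPR2 replicates 1 and 2 were above all RPM tumours and replicate 3 was below them. The log2 difference was -0.13 (95% interval -0.46 to 0.21; limma, Benjamini-Hochberg adjusted p = 0.543), and without RPR2 replicate 3 it was -0.35 (adjusted p = 0.0720 by the same test). Eed was called lower with array weights, at -0.35, and with TPM scaling and RPR2 replicate 3 left out, at -0.75 (limma, Benjamini-Hochberg adjusted p = 0.00130 and 0.0101). Those fits called 27.3% and 9.66% of all genes higher and 41.8% and 36.5% lower. Suz12 was at 16.7 to 54.4 FPKM (median 43.0) in RPM and 42.8, 35.6 and 14.3 FPKM in RPR2. Only RPR2 replicate 3 lay outside the RPM range, and the difference of 0.40 (95% interval -0.29 to 1.09; limma, Benjamini-Hochberg adjusted p = 0.343) became -0.06 (adjusted p = 0.889 by the same test) without it. Jarid2 was at 4.82 to 23.5 FPKM (median 10.1) in RPM and 12.8, 12.8 and 6.41 FPKM in RPR2, all 3 within the RPM range (log2 difference -0.09, 95% interval -0.85 to 0.67; limma, Benjamini-Hochberg adjusted p = 0.864). Without RPR2 replicate 3 the difference of Jarid2 was -0.39 (adjusted p = 0.453 by the same test). The interval of Suz12 includes a difference as large as that of Ezh2.

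Other PRC2 genes moved in both directions. Of the 12 subunits tested, Ezh1 and Ezh2 included, 3 rose, 2 fell and 7 did not pass, with a median difference of -0.10 against -0.06 for all genes. In that fit 18.4% of all genes were called higher and 22.8% lower, so these counts are not a result about the list. Phf1, an accessory subunit that reads histone marks, fell to 4.75 ± 0.550 FPKM in RPM (SD, n = 11), against 15.8, 23.7 and 23.4 FPKM in RPR2 (log2 difference -1.92; limma, Benjamini-Hochberg adjusted p = 6.99e-07). Epop, which links PRC2 to elongin, rose to 15.5 ± 5.44 FPKM in RPM (SD, n = 11), against 0.79, 0.35 and 6.19 FPKM in RPR2 (log2 difference 2.60; limma, Benjamini-Hochberg adjusted p = 0.000201). The histone-binding subunit Rbbp7 rose by 0.53 (limma, Benjamini-Hochberg adjusted p = 0.0266) but was at 0.26 (adjusted p = 0.204) without RPR2 replicate 3. Without that tumour 2 of the 12 were called higher and 4 lower, against 16.4% and 27.4% of all genes. The shares of all genes in these 2 fits also apply to the list counts below.

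PRC1, the complex that places ubiquitin on histone H2A at the same targets, had 3 of 21 subunits higher, 6 lower and 12 not called (median 0.04, all genes -0.06). Cbx7, which binds the mark made by PRC2, fell to 6.31 ± 1.33 FPKM in RPM (SD, n = 11), against 36.7, 34.3 and 11.4 FPKM in RPR2 (log2 difference -1.82; limma, Benjamini-Hochberg adjusted p = 0.000148). Scmh1 and the ubiquitin ligase subunit Ring1 fell too, by 1.17 and 0.63 on the log2 scale (limma, Benjamini-Hochberg adjusted p = 0.00160 and 0.00298). Kdm2b, which brings PRC1 to CpG islands, rose by 0.90 (limma, Benjamini-Hochberg adjusted p = 0.00336). With RPR2 replicate 3 left out the counts were 1 higher and 8 lower, and after median-of-ratios scaling 5 and 5, where 21.4% and 20.7% of all genes were called. TPM scaling gave none higher and 5 lower, against 11.9% and 22.8% of all genes.

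Genes that oppose Polycomb were mostly not called with all libraries. Neither histone demethylase of the PRC2 mark, Kdm6a (log2 difference -0.62) nor Kdm6b (0.00), passed with all libraries. Without RPR2 replicate 3 Kdm6a was called lower, at -1.10 (limma, Benjamini-Hochberg adjusted p = 0.0166). In that fit 1 of the 6 genes of this list was called higher and 2 lower. With all libraries 2 of the 6 rose. These were Bap1, the deubiquitinase that removes the PRC1 mark, at 41.2 ± 5.05 FPKM in RPM (SD, n = 11) against 17.1, 23.0 and 19.1 FPKM in RPR2 (log2 difference 1.03; limma, Benjamini-Hochberg adjusted p = 4.09e-05), and its partner Asxl3 (adjusted p = 0.0334, and 0.212 without RPR2 replicate 3). Of 11 trithorax genes, which place activating methylation on histone H3, the core subunits Ash2l and Wdr5 rose by 0.61 and 0.48 and the methyltransferase Kmt2d fell by 0.94 on the log2 scale (limma, Benjamini-Hochberg adjusted p = 0.00143, 0.00398 and 0.0308). The median of that list was -0.05. After TPM scaling none of the 11 was called higher, and without RPR2 replicate 3 the Kmt2d call was lost (limma, Benjamini-Hochberg adjusted p = 0.0661).

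**Figure D3:**
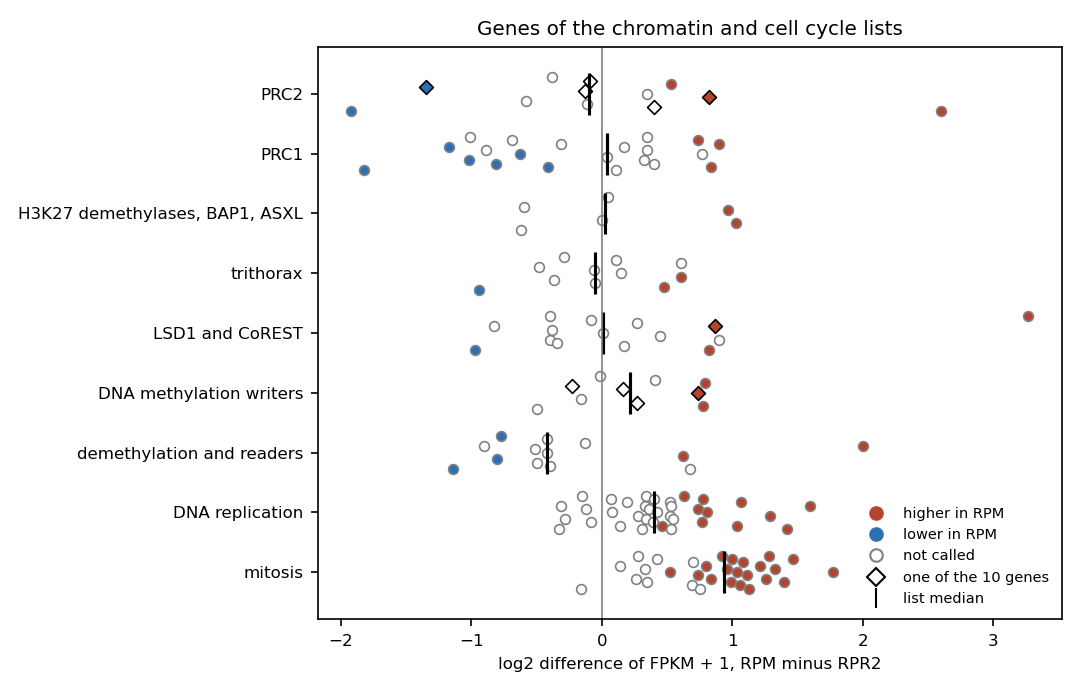
Log2 difference of FPKM + 1, RPM minus RPR2 (x axis), for each tested gene of the Polycomb, trithorax, LSD1, DNA methylation and cell cycle lists, filled where the adjusted p was under 0.05. Diamonds are the 10 genes and bars are list medians, which lie between -0.42 and 0.22 for the chromatin lists and at 0.40 and 0.94 for DNA replication and mitosis.

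Kdm1a, the gene of LSD1, was called higher in RPM. It ran from 56.1 to 104 FPKM (median 75.1) in RPM and stood at 51.6, 59.7 and 21.1 FPKM in RPR2. Of the 11 RPM tumours 10 lay above all RPR2 tumours, and RPM replicate 5 lay below RPR2 replicate 2. The log2 difference was 0.87 ± 0.250 (SE of the limma fit; Benjamini-Hochberg adjusted p = 0.0118). Without RPR2 replicate 3, where the mitosis and neuroendocrine genes were also lowest, it was 0.42 (95% interval -0.00 to 0.85) and no longer called (adjusted p = 0.0989 by the same test). With the mean of the mitosis list as a covariate the difference of Kdm1a was 0.12, and with that of the replication list 0.08, neither called (limma, Benjamini-Hochberg adjusted p = 0.720 and 0.863). Those fits called 14.3% and 9.22% of all genes higher and 32.6% and 18.3% lower. Genotype and these list means cannot be told apart, so the part of the cell cycle genes in the difference was not tested. After TPM scaling, which sets every library to the same sum, the difference of Kdm1a was 0.68 (limma, Benjamini-Hochberg adjusted p = 0.160). With RPR2 replicate 3 left out as well, it was 0.02 after TPM scaling and not called (limma, Benjamini-Hochberg adjusted p = 0.958). After median-of-ratios scaling without that tumour, Kdm1a was called higher, at 0.72 (limma, Benjamini-Hochberg adjusted p = 0.00866). That fit called 22.5% of all genes higher and 20.1% lower.

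Among 15 tested genes of the LSD1 and CoREST list, 3 rose, 1 fell and 11 did not pass (median 0.01). Rcor2, a CoREST scaffold of neural and stem cells, had the largest difference of the list with all libraries. It rose to 50.9 ± 15.7 FPKM in RPM (SD, n = 11), against 12.5, 5.33 and 0.62 FPKM in RPR2 (log2 difference 3.27; limma, Benjamini-Hochberg adjusted p = 4.85e-05; 2.43 and 7.96e-05 without RPR2 replicate 3). Its paralogs Rcor1 and Rcor3 did not pass with all libraries, with log2 differences of 0.01 and -0.40. The histone deacetylase Hdac2 rose to 161 ± 28.6 FPKM in RPM (SD, n = 11), against 94.5, 81.6 and 94.0 FPKM in RPR2 (limma, Benjamini-Hochberg adjusted p = 0.000836). Hmg20b, a DNA-bending member of the complex, fell by 0.97 on the log2 scale (limma, Benjamini-Hochberg adjusted p = 0.00317). Gfi1 and Insm1, zinc finger proteins that recruit LSD1, were at 5.79 ± 3.48 and 47.1 ± 19.8 FPKM in RPM (SD, n = 11) and did not pass with all libraries. In RPR2, Gfi1 was at 31.6, 34.2 and 0.12 FPKM and Insm1 at 91.0, 114 and 0.21 FPKM. In the fit without that tumour, Gfi1, Insm1 and Rcor3 were called lower in RPM (limma, Benjamini-Hochberg adjusted p = 0.000625, 0.0473 and 0.0138), and the list counts became 2 higher and 4 lower.

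Among Dnmt1, Dnmt3a, Dnmt3b and Uhrf1, Uhrf1 passed narrowly and the others did not. Uhrf1 ran from 30.0 to 69.8 FPKM (median 51.9) in RPM and stood at 40.3, 38.3 and 14.9 FPKM in RPR2. Of the RPM tumours 9 lay above all RPR2 tumours, and replicates 1 and 2 lay below RPR2 replicates 1 and 2. The log2 difference was 0.74 ± 0.279 (SE of the limma fit; Benjamini-Hochberg adjusted p = 0.0448). With RPR2 replicate 3 left out it was 0.30 (adjusted p = 0.357 by the same test), and leaving out any of RPM replicates 3 to 11 also ended the call (adjusted p = 0.0518 to 0.0633), at differences of 0.69 to 0.76. Median-of-ratios scaling without RPR2 replicate 3 called Uhrf1 higher, at 0.59 (limma, Benjamini-Hochberg adjusted p = 0.0345). TPM scaling without it did not, at -0.10 (limma, Benjamini-Hochberg adjusted p = 0.829).

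Dnmt1 was at 30.4 to 108 FPKM (median 58) in RPM and 92.8, 73.7 and 20.2 FPKM in RPR2. RPR2 replicates 1 and 2 lay in the upper part of the RPM range and replicate 3 below it. The difference was 0.16 (95% interval -0.70 to 1.02; limma, Benjamini-Hochberg adjusted p = 0.783) and -0.50 without replicate 3 (95% interval -1.27 to 0.27). Dnmt3a was at 7.14 to 27.1 FPKM (median 15.7) in RPM and 26.6, 16.6 and 11.5 FPKM in RPR2, all within the RPM range (-0.23, 95% interval -0.96 to 0.51; limma, Benjamini-Hochberg adjusted p = 0.630). Dnmt3b, the lowest of the 10 genes in both models, was at 0.95 to 4.04 FPKM (median 2.29) in RPM and 1.6, 2.04 and 1.31 FPKM in RPR2, also within the RPM range (0.27, 95% interval -0.33 to 0.87; limma, Benjamini-Hochberg adjusted p = 0.468). With RPR2 replicate 3 left out these differences were -0.50 for Dnmt3a and 0.18 for Dnmt3b (adjusted p = 0.315 and 0.691 by the same test). Its lowest value corresponds to about 76 reads at the depth estimated from the table, so its values rest on the fewest reads of the 10 genes. The ratio of Uhrf1 to Dnmt1 was 0.545 to 1.08 (median 0.892) in RPM and 0.435, 0.520 and 0.739 in RPR2, and 8 of the 11 RPM tumours lay above all RPR2 tumours. The ratio of Dnmt3b to Dnmt3a was 0.0657 to 0.522 in RPM and 0.0602, 0.123 and 0.114 in RPR2.

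**Figure D4:**
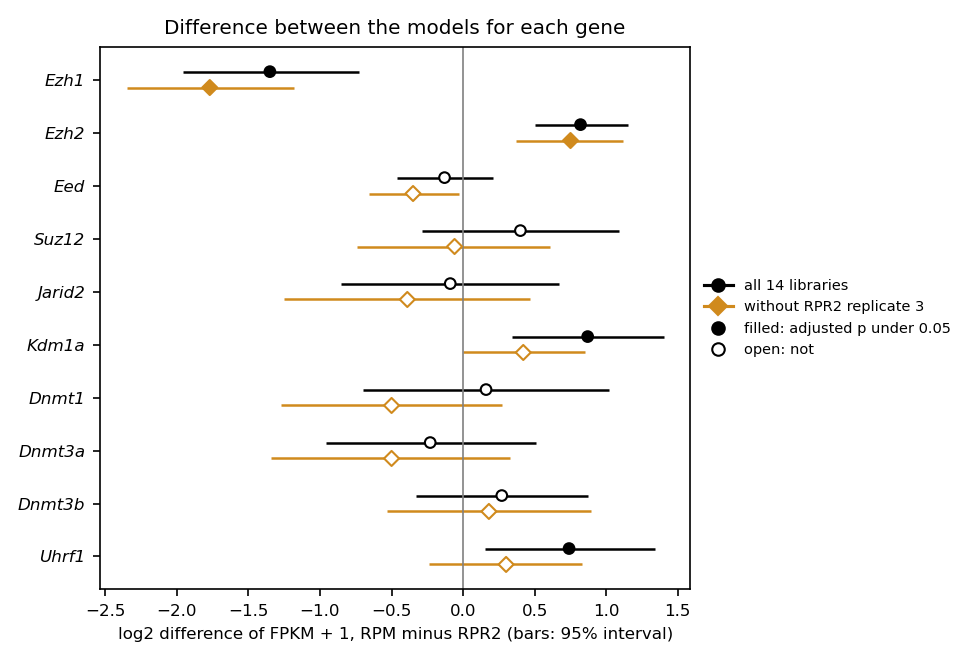
Log2 difference of FPKM + 1, RPM minus RPR2 (x axis), with 95% intervals from limma, for all 14 libraries (black) and without RPR2 replicate 3 (orange). Filled points passed an adjusted p of 0.05: Ezh1 and Ezh2 in both fits, Kdm1a and Uhrf1 with all libraries alone.

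Around the methyltransferases, 2 other genes of the 10 tested writers and cofactors rose and none fell (median 0.22). In the fit without RPR2 replicate 3 these 2 stayed called, and Hells, a chromatin remodeller gene needed for DNA methylation, was called lower (limma, Benjamini-Hochberg adjusted p = 0.0246). Hells was at 10.3 to 32.0 FPKM in RPM and 54.5, 34.1 and 6.77 FPKM in RPR2. Trim28, which brings repressors to imprinted and repeat DNA, was at 376 ± 43.1 FPKM in RPM (SD, n = 11) against 204, 190 and 266 FPKM in RPR2 (limma, Benjamini-Hochberg adjusted p = 0.000696). Cdca7, a partner of the remodeller HELLS, was at 56.2 ± 16.3 FPKM in RPM (SD, n = 11) against 23.5, 23.8 and 51.7 FPKM in RPR2 (limma, Benjamini-Hochberg adjusted p = 0.0382). Dnmt3l, the inactive cofactor of DNMT3A and DNMT3B, was at most 0.280 FPKM in any tumour and was not tested. Of 13 genes that read or remove DNA methylation, 2 rose, 3 fell and 8 did not pass (median -0.42), and the fit without RPR2 replicate 3 called 2 higher and 4 lower. Tdg, the glycosylase that completes demethylation, rose to 47.8 ± 10.8 FPKM in RPM (SD, n = 11), against 16.6, 11.5 and 6.77 FPKM in RPR2 (limma, Benjamini-Hochberg adjusted p = 1.32e-05). The methyl-CpG binding protein genes split, with Mbd2 and Mbd1 lower by 1.14 and 0.77 on the log2 scale and Mbd3 higher by 0.62 (limma, Benjamini-Hochberg adjusted p = 0.000219, 0.0168 and 0.00394). None of the oxygenases Tet1, Tet2 and Tet3, which start demethylation, passed (log2 differences 0.68, -0.40 and -0.42).

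Most genes of the lists known to be silenced by these marks were too low to test. Of 18 germline genes known to be kept off by promoter DNA methylation, 15 did not reach 1 FPKM in 3 tumours of the 14. Dpep3 was at no more than 0.0400 FPKM in RPM and at 2.31, 9.42 and 1.21 FPKM in RPR2. It passed the filter on low values through RPR2 alone, and was too low to test without RPR2 replicate 3, so these levels are a description. Of the other 2 genes neither was called. Of 27 developmental regulators known as Polycomb targets in embryonic stem cells, 17 were too low to test and 2 (Onecut1 and Msx1) passed the filter through RPM alone. Of the other 8, 3 fell and 5 did not pass, where 22.8% of all genes were called lower. Over the 10 tested genes, Onecut1 and Msx1 included, the median difference was -0.64 with all libraries (all genes -0.06). With those 2 genes included and 17 of the 27 untested, this median is only a description. The fit without RPR2 replicate 3 called 4 of the 10 lower, against 27.4% of all genes. It also called 1 higher, Onecut1, which is only a description because the gene passed the filter through RPM alone. The cell cycle inhibitor Cdkn2b fell to 1.57 ± 0.881 FPKM in RPM (SD, n = 11), against 15.5, 15.2 and 25.5 FPKM in RPR2 (log2 difference -2.98; limma, Benjamini-Hochberg adjusted p = 4.55e-06). Irx3, a homeobox factor, fell by 1.81 on the log2 scale (limma, Benjamini-Hochberg adjusted p = 0.00199). Gata6 fell by 1.54, and without RPR2 replicate 3 its call was lost (limma, Benjamini-Hochberg adjusted p = 0.0163 and 0.0890). Onecut1 was at 0.320 to 6.29 FPKM in RPM and 0.04, 0 and 0 FPKM in RPR2. The marks themselves were not measured.

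Ezh2, Uhrf1 and Dnmt1 are known to be expressed with cell cycle genes, many of which were higher in RPM. Of 30 mitosis genes 20 rose and 0 fell (median 0.94), and 11 of 35 genes of DNA replication rose with 0 lower (median 0.40). Birc5, the survivin gene of the chromosomal passenger complex, rose by 1.77 on the log2 scale (limma, Benjamini-Hochberg adjusted p = 7.84e-06). The kinase gene Cdk1, the centromeric histone gene Cenpa and Ube2c of the mitotic ubiquitin pathway rose by 0.99, 1.47 and 1.13. Among the replication genes, Gins1 and Mcm10 of the helicase machinery rose by 1.42 and 1.29, and Rrm2, of nucleotide synthesis, and the licensing factor gene Cdt1 by 1.60 and 1.07 (limma, Benjamini-Hochberg adjusted p of at most 0.000418 for these 7). TPM scaling left 9 mitosis genes higher, and 8 replication genes higher and 1 lower. Without RPR2 replicate 3 the counts higher and lower were 14 and 0 for mitosis and 8 and 2 for replication. The mean of the replication list was 5.18 to 5.49 in RPM and 5.16, 5.04 and 4.53 in RPR2, so the groups did not overlap. With this mean as a covariate the difference of Ezh2 was 0.62 and no longer called, and with the mitosis mean it was 0.83 and called (limma, Benjamini-Hochberg adjusted p = 0.0677 and 0.00662). Ezh1 was called lower with either covariate, at -1.84 and -1.97 (limma, Benjamini-Hochberg adjusted p = 0.00773 and 0.000542). Kdm1a and Uhrf1 were called with neither, and Dnmt1 was called lower with the mitosis mean, at -1.28 (limma, Benjamini-Hochberg adjusted p = 0.00281). Of all genes, 9.22% were called higher and 18.3% lower with the replication covariate, and 14.3% higher and 32.6% lower with the mitosis covariate. Genotype and these list means cannot be told apart.

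In RPM the median levels ran in the order Ezh2 (89.7 FPKM), Kdm1a (75.1), Dnmt1 (58), Uhrf1 (51.9), Suz12 (43.0), Eed (20.9), Dnmt3a (15.7), Jarid2 (10.1), Ezh1 (5.84) and Dnmt3b (2.29). The range of each gene overlapped that of the next. Within tumours the order held for neighbours in 8 to 10 of 11 tumours, and Ezh1 lay above Dnmt3b in all 11. In RPR2 the order of medians began with Dnmt1 (73.7 FPKM), Ezh2 (51.9) and Kdm1a (51.5), which overlapped, and Ezh1 (16.2 FPKM) stood above Jarid2 (12.8).

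Variation among the RPM tumours was large for some of the genes and small for others. The highest RPM tumour exceeded the lowest by 4.88-fold for Jarid2, 4.25-fold for Dnmt3b, 3.80-fold for Dnmt3a, 3.55-fold for Dnmt1 and 3.26-fold for Suz12, but by 1.41-fold for Eed, 1.66-fold for Ezh2 and 1.86-fold for Kdm1a. RPM replicate 2 was the lowest of the 11 for 6 genes (Ezh1, Suz12, Jarid2, Dnmt1, Dnmt3b and Uhrf1) and the highest for Ezh2. RPM replicate 9 was among the highest 3 tumours for 7 of the 10 genes and had the lowest Ezh2. Replicate 2 also had the largest sum of FPKM of any RPM library, 939971, and replicate 9 the smallest, 599119. In RPR2 the sums were 523529, 545461 and 825292, so replicates 1 and 2 lay below every RPM library. The fits after TPM scaling set all these sums equal. The part of the sum in the pattern among RPM tumours was not tested.

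**Figure D5:**
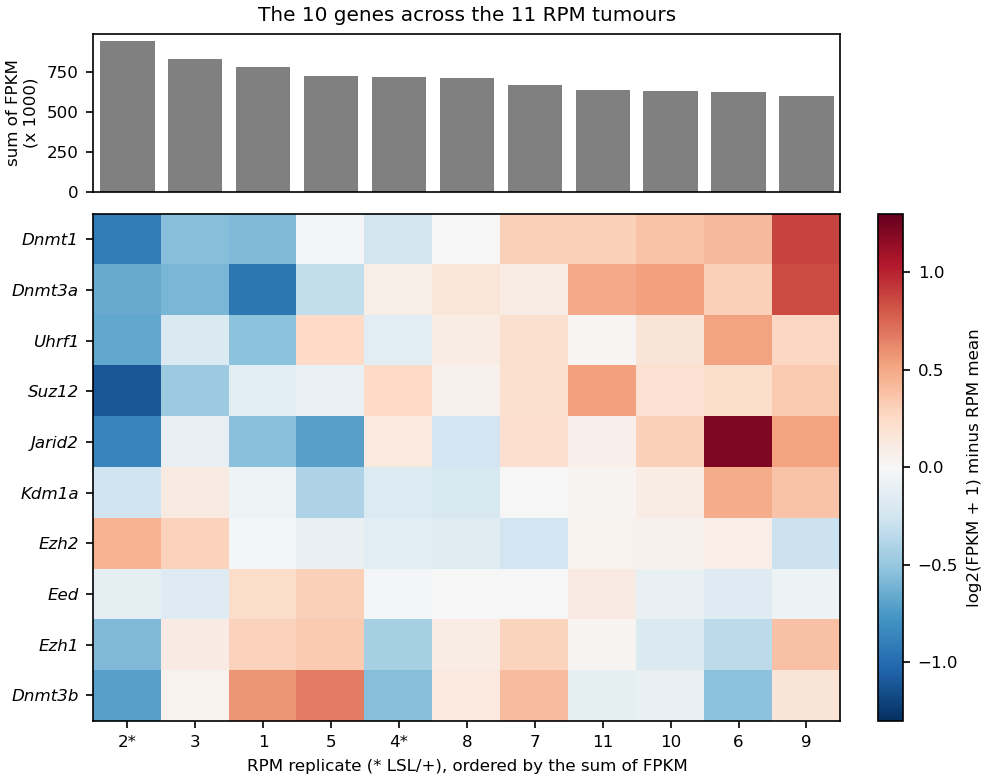
Log2(FPKM + 1) of each gene minus its mean over the 11 RPM tumours (colour), with tumours ordered by the sum of FPKM in the library (bars) and LSL/+ tumours starred. Dnmt1, Dnmt3a, Uhrf1, Suz12 and Jarid2 are low in replicate 2, which has the largest sum, and high in replicate 9, which has the smallest.

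The genes whose level was most like each of the 10 over the 11 RPM tumours were found among 12616 protein-coding genes by Pearson's r, as a description. Genes most like Ezh1 included Suclg2 (0.96) and Dnmt3b (0.94), and Dnmt3b was most like Itih3 (0.97), Suclg2 (0.94) and Hmcn1 (0.94). Ezh2 was most like Tarbp2 (0.94), Ebpl (0.94) and Arpc3 (0.92). Dnmt1 was most like Map6, Hnrnpul2 and Rbm15b (0.98 each), and Dnmt3a most like Zmynd8, Grk2 and Taok2 (0.98 each). Uhrf1 was most like D2hgdh, Itsn1 and Dhx57 (0.96 each). Suz12 was most like Camk1d (0.98), Dpp8 (0.97) and Cops8 (0.97), and Jarid2 most like Tspyl5, Clasp2 and Tcaf1 (0.97 each). Kdm1a was most like Rgs12 (0.97), Prkar2b (0.96) and Mturn (0.95), and those most like Eed included Grhl1 (0.94) and Ddx31 (0.93). These values share the 11 libraries and their scaling.

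Within RPM, no gene of the 10 had a slope that passed on the mean of the replication list, which spanned only 5.18 to 5.49 (limma slope, 0 called). At an unadjusted p under 0.05 there were 0 of the 10, against 4.66% of all genes. The slopes ran from -2.25 (Dnmt3b) to 1.75 (Jarid2). Without the 2 libraries farthest from the median of that mean they ran from -6.33 (Dnmt3a) to 0.97 (Ezh2), none called, so they were not stable. With all 11 RPM libraries no gene of all 14862 tested was called either (0.00%). After TPM scaling 6 of the 10 had slopes that passed, as did 37.2% of all genes. Against the mean of the mitosis list (5.31 to 5.74), Dnmt1, Dnmt3a, Uhrf1 and Suz12 had positive slopes that passed, of 2.81, 2.92, 1.95 and 2.09 log2 units per unit (limma, Benjamini-Hochberg adjusted p = 0.0164, 0.0187, 0.0164 and 0.0433). Slopes passed for 11.6% of all genes in that fit. Ezh2 had a slope of -0.88 that did not pass (limma, Benjamini-Hochberg adjusted p = 0.138). Without the 2 libraries farthest from the median of the mitosis mean, none of the 10 passed, nor did any of the 14588 genes tested, and those 4 slopes were 2.63, 2.56, 1.33 and 1.56 (limma, Benjamini-Hochberg adjusted p = 0.384 to 0.469).

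LSL/LSL tumours, with 2 copies of the Myc T58A allele, did not differ from LSL/+ tumours past the threshold for any of the 10 genes (limma, Benjamini-Hochberg adjusted p of at least 0.250). Of all 14862 genes 1 was called (0.00673%). At an unadjusted p under 0.05, 2 of the 10 passed, as did 17.3% of all genes. These were Ezh1, higher in LSL/LSL by 0.62 (95% interval 0.16 to 1.08, unadjusted p = 0.0130 in limma's fit), and Dnmt3b, higher by 0.77 (0.14 to 1.39, unadjusted p = 0.0199 in the same fit). The 2 LSL/+ tumours had 3.28 and 3.72 FPKM of Ezh1 and 0.95 and 1.17 FPKM of Dnmt3b. These 2 genes ran together over the 11 RPM tumours (Pearson's r = 0.94), so they are not separate observations. After quantile normalization the unadjusted p was 0.128 for Ezh1 and 0.0779 for Dnmt3b, and without RPM replicate 2 it was 0.0841 and 0.110 (limma). Of the 10 differences 9 were positive, as were 63.2% of those of all genes, whose median was 0.16. After median-of-ratios scaling that median was -0.01 and the difference of Eed was -0.10. Without RPM replicate 2 those of Suz12, Jarid2 and Dnmt3a were at or below 0 (-0.16, -0.04 and -0.01).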

How the data were processed

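RNA of 14 mouse lung tumours was sequenced, and the authors deposited 1 table of FPKM values (reads scaled by transcript length and library size) by gene and tumour. RSEM 1.2.12, Bowtie 1.0.1 and mm10 stand in the submitters' processing notes, which assign them no roles. Annotation, strand setting and scaling across libraries are not stated there. Per the labels' protocols, libraries were stranded and poly(A)-selected. RSEM divides reads shared by near-identical genes, so such values depend on that division. Exons of Ezh2, Eed, Suz12 and Dnmt3a overlap genes on the opposite strand, all at or under 0.81 FPKM.

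The table has no counts. From the steps between low values of short genes, depth was estimated at 17.4 to 19.8 M reads in RPM and 21.0 to 22.6 M reads in RPR2. No count model was fitted.

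Symbols were found by Ensembl identifier. Groups come from the genotype labels, and replicates were numbered in the order listed. The labels do not say that tumours came from separate animals (RPM replicates 6 and 7, and 10 and 11, share a title number), so p-values measure the spread between these samples. Description codes begin with 12135 or 12138 in RPM and 12416 in RPR2, so whatever they mark cannot be told apart from genotype.

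Genes that reached 1 FPKM in 3 or more libraries were tested as log2(FPKM + 1), the deposited FPKM plus a pseudocount of 1, with limma 3.58.1 in R 4.3.3 (empirical Bayes with trend, Benjamini-Hochberg over all genes tested, threshold 0.05), and all 10 genes passed the filter. Fold changes on that scale understate the change of low genes. Intervals are 95%. The scripts were tested on simulated data. The genes and lists were chosen with earlier results of these data known. Named genes are the 10, up to 4 called genes of each list by smallest p (up to 2 where none was called), and the 3 most like each of the 10. A few genes that this rule names are not reported here. Others named were chosen after their values were seen.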

Additional observations from a re-analysis of the deposited data

Results flagged for a closer look

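Among the 9 LSL/LSL RPM tumours, the Jarid2 level of RPM replicate 6 stood apart, at 23.5 FPKM with the next highest at 14.1 FPKM. The gap was 0.52 of the range of the 9 values, above Dixon's limit for 9 samples. The 10 genes were each tested once in this way, and chance marks about 1 in 20 such groups.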

How the results depend on the processing

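No paired analysis was possible because the labels give no replicate numbers shared between the models. Over 28 other settings, Ezh1 was called lower in all 28 (log2 difference -2.21 to -0.97) and Ezh2 higher in 26 (0.35 to 1.05). The exceptions for Ezh2 were the replication covariate and TPM scaling without RPR2 replicate 3 (0.35; adjusted p = 0.0875 by limma). Both that setting and median-of-ratios scaling without RPR2 replicate 3, and the mitosis slopes without 2 libraries, were chosen after seeing the data. The median-of-ratios fit called Ezh2, Kdm1a and Uhrf1 higher (1.05, 0.72 and 0.59) and Ezh1 lower (-1.48). Kdm1a was called in 23 and Uhrf1 in 12. The count of the 10 genes called higher, 3 in the report, was 1 with TPM scaling, 1 without RPR2 replicate 3, 1 with the mitosis covariate, and 0 with the replication covariate and with TPM scaling without RPR2 replicate 3, and it ran from 1 to 3 over single tumours left out. The count called lower, 1 in the report, was 2 with array weights (Eed added) and with TPM scaling without RPR2 replicate 3, and 3 with the mitosis covariate (Dnmt1 and Dnmt3a added), and it stayed at 1 over single tumours left out. The difference of Uhrf1 turned to -0.18 and -0.23 with the replication and mitosis covariates and to -0.10 with TPM scaling without RPR2 replicate 3. That of Dnmt1 was -1.28 with the mitosis covariate (limma, Benjamini-Hochberg adjusted p = 0.00281). With no filter, and with a random effect for the title number, Uhrf1 was not called (limma, Benjamini-Hochberg adjusted p = 0.0713 and 0.0700). TPM scaling moved the median of all genes from -0.06 to -0.23, and without RPR2 replicate 3 to -0.58. Within RPM, 6 of the 10 followed the replication mean after TPM scaling, with 37.2% of all genes, and 4 followed the mitosis mean. The Suz12 slope was 2.62 and 2.09 in these fits, against -1.27 in the replication fit of the report. TPM scaling divides the list and the genes by the same library sum. The cause of the other changes was not tested. Leaving out LSL/+ replicate 2 or 4 called 0 of the 10, with the lone LSL/+ tumour assumed to vary like the others. With 3 RPR2 tumours, differences of the size of the intervals given cannot be resolved.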
